A study of Mus musculus with 24 samples.

Results

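Chromatin accessibility with age was examined at 39 AP-1 and immediate early genes of the mouse small intestinal epithelium. Members were the consensus peaks annotated to one of these genes at 50000 bp or less from its transcription start site (TSS). This gave 354 of 150646 peaks, on 38 of the 39 genes, with Ereg the exception. Peaks within 1000 bp of the TSS, 48 in number, are called promoter peaks, and the other 306 are called distal peaks. The peaks were taken by annotation alone, but the gene list was chosen with earlier results of these data known.

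The assay was ATAC-seq, which maps open chromatin by where the Tn5 transposase inserts adapters. The groups were 3 young and 3 aged libraries of C57BL/6JRj mice, and the labels name no genetic change or treatment in either. Epithelial cells were taken directly from the intestine with EDTA and trypsin and sorted for EpCam without CD45. The labels give only the words young and aged. The series text gives 2 to 3 and 20 to 22 months where it describes its other experiments, so those ages are not stated for these libraries. Nothing states that each library is a separate mouse, and the p-values below measure only the spread between libraries.

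AP-1 is a family of paired basic leucine zipper transcription factors. FOS proteins bind DNA as partners of JUN proteins, and related factors such as JDP2, BATF and ATF3 join or displace them. Growth factor and stress signals through MAP kinases switch the FOS, JUN, EGR, IER and NR4A genes on within minutes and without new protein synthesis, which is why they are called immediate early genes. The DUSP phosphatases among them switch the kinases off again, and the EGF receptor ligands HBEGF, AREG and EREG start the signal. Enzymatic release of cells from tissue is known to induce many of these genes.

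Total counts in peaks ran from 6149680 in young 4 to 23935291 in aged 2, and young 4 was the shallowest library. Member peaks held 0.407 to 0.418% of the counts in aged and 0.385 to 0.410% in young libraries. Epithelial marker genes had promoter peaks in 8 of 9 cases, including Epcam, Cdh1 and Cdx2, with a summed promoter level of 898 to 917 in aged and 900 to 946 in young libraries. Of the 14 leukocyte markers only Coro1a and Cd2 had a promoter peak, and Ptprc, which encodes CD45, had none. The summed leukocyte level was 31.0 to 49.2 in aged and 35.0 to 42.5 in young libraries. Promoter peaks were present for 2 of 8 fibroblast markers, 1 of 6 endothelial markers and 4 of 7 smooth muscle and neuron markers. The summed level of the smooth muscle and neuron markers was 36.6 to 43.1 in aged and 36.8 to 46.1 in young libraries. These levels are normalised read counts (CPM) scaled to all promoter counts, and no marker promoter in these lists passed the age test. At distal peaks, summed by gene, the log2 fold change of aged over young was above 0 in 8 of 9 epithelial markers (median 0.05) and 7 of 8 tested leukocyte markers (median 0.15). It was above 0 in 3 of 5 fibroblast, 2 of 3 endothelial and 2 of 5 smooth muscle and neuron markers (median -0.05 for the last). The summed distal level of the leukocyte markers was 61.3 to 71.1 in aged and 60.0 to 67.5 CPM of distal counts in young libraries. None of these marker sums was called in the fit on age alone, and with the replicate block described below the fibroblast marker Pdgfrb (0.37, edgeR adjusted p = 0.0373) and the endothelial marker Cdh5 (-0.43, adjusted p = 0.0351) were. The part of other cell types in the distal results was not tested. The labelled epithelium thus showed its defining markers.

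Promoter windows of a few members are printed first, because the distal results below concern 3 of these genes and the others carry the elements through which this gene class is classically switched on. They are RefSeq windows of build GRCm38.p6, from 250 bases before to 50 bases after the start, 300 bases each, written 5′ to 3′ on the gene's strand. All of these windows lay wholly under a peak of their own gene. Jdp2 is chr12:85598855-85599154 on the plus strand, and Fosb is chr7:19309996-19310295 on the minus strand. Btg2 is chr1:134079106-134079405 and Dusp1 is chr17:26508423-26508722, both on the minus strand, and capitals there mark the cyclic AMP response element (CRE) TGACGTCA. Srf is chr17:46556113-46556412 on the minus strand and Dusp5 is chr19:53528895-53529194 on the plus strand, and capitals there mark CArG boxes, the element bound by SRF.
Jdp2: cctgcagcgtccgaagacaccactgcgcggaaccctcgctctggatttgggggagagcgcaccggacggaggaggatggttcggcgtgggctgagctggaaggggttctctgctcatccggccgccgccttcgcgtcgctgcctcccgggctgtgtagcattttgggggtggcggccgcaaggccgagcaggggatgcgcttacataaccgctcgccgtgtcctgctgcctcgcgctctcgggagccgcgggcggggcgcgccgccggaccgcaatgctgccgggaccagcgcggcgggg
Fosb: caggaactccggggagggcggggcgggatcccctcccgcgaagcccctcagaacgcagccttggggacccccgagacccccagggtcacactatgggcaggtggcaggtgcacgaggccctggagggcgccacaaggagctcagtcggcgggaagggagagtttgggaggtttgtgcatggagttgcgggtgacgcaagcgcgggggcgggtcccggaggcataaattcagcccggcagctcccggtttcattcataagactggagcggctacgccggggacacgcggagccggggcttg
Btg2: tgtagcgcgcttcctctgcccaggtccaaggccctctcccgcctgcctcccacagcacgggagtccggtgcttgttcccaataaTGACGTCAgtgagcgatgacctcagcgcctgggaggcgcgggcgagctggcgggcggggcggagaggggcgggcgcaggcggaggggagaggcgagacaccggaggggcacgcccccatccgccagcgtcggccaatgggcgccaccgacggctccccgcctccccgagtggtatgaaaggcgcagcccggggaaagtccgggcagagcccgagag
Dusp1: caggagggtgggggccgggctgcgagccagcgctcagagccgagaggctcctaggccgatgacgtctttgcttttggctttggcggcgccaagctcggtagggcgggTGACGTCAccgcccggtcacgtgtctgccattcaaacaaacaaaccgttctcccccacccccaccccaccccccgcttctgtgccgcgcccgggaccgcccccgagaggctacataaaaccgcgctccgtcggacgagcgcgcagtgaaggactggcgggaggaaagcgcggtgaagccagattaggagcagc
Srf: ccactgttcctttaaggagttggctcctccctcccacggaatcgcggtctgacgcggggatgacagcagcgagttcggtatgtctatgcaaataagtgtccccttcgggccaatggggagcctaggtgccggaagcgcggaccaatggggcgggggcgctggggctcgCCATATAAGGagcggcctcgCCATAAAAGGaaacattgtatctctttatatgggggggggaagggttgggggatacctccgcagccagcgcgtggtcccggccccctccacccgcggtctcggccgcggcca
Dusp5: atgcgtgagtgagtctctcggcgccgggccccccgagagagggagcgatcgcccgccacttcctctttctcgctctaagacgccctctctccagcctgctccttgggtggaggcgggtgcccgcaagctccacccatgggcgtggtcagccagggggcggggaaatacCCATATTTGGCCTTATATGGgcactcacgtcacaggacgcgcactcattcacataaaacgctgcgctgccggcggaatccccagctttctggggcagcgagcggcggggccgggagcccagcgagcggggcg

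RefSeq windows were matched for 32 of the 39 members, with 45 windows in all, and both strands were searched. Egr1, Egr3, Fosl1, Ier2, Ctgf, Hbegf and Ereg had no matched window, so their promoters were not searched. The AP-1 element TGACTCA was in 0 of the 45 windows, against 5.2% of all 32851 RefSeq promoter windows. The CRE was found for Areg, Btg2, Dusp1 and Maff, in 4 of the 45 windows, against 1.79% of all windows. Its first base lay 61 bases before the start in Areg, 166 in Btg2, 143 in Dusp1 and 29 in Maff. CArG boxes were found for Dusp5, Egr2 and Srf, in 6 of the 45 windows, against 1.63% of all windows. Overlapping windows of Egr2 repeat the same box in that count, and Srf and Dusp5 each held 2 boxes. The EGR element GCGTGGGCG was in Maff, and in 0.612% of all windows. No motif in these lists overlapped another kind. A match says only that the letters are present.

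Of the 354 member peaks, 318 passed the filter on low counts, 46 of 48 promoter and 272 of 306 distal peaks. In the comparison of aged with young libraries, 9 member peaks were called, all distal and all higher in aged, by edgeR's quasi-likelihood test at a Benjamini-Hochberg adjusted p below 0.05. This is 2.83% of those tested. Over all tested peaks 1.6% were called, and 1.07% were called higher. Jdp2, whose product represses AP-1 as a JUN partner, accounted for 5 of the 9, with 2 at Fosb, 1 at Hbegf and 1 at Btg2. Without Jdp2 the share was 4 of 308 peaks, or 1.30%, which lies between these 2 background shares. The libraries share their numbers across ages, and a fit with the number as a replicate block called 18 member peaks (5.66%), 17 higher and 1 lower, against 3.09% of all peaks. Without Jdp2 the blocked fit called 13 of 308, or 4.22%.

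Direction was skewed more widely than the calls. The log2 fold change of aged over young was above 0 in 209 of 318 member peaks, or 65.7%, against 49.3% of all tested peaks. Its median was 0.08, against -0.0039 for all, and without Jdp2 it was 0.07 with 64.9% above 0. The SD of the median log2 fold change between libraries was 0.0499 for peaks. Among distal peaks, 184 of 272 were above 0 (67.6%, median 0.10) against 50.3% of all distal peaks at this range. Among promoter peaks, 25 of 46 were above 0 (54.3%, median 0.02) against 46.2% of all promoter peaks. The difference between the kinds was not tested. In 41 member peaks every aged value exceeded every young value, and in 9 the reverse held, where the background was 7.32% and 6.54%. Peaks of a gene share its surroundings and are not independent, so these shares are given without a test.

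**Figure D1:**
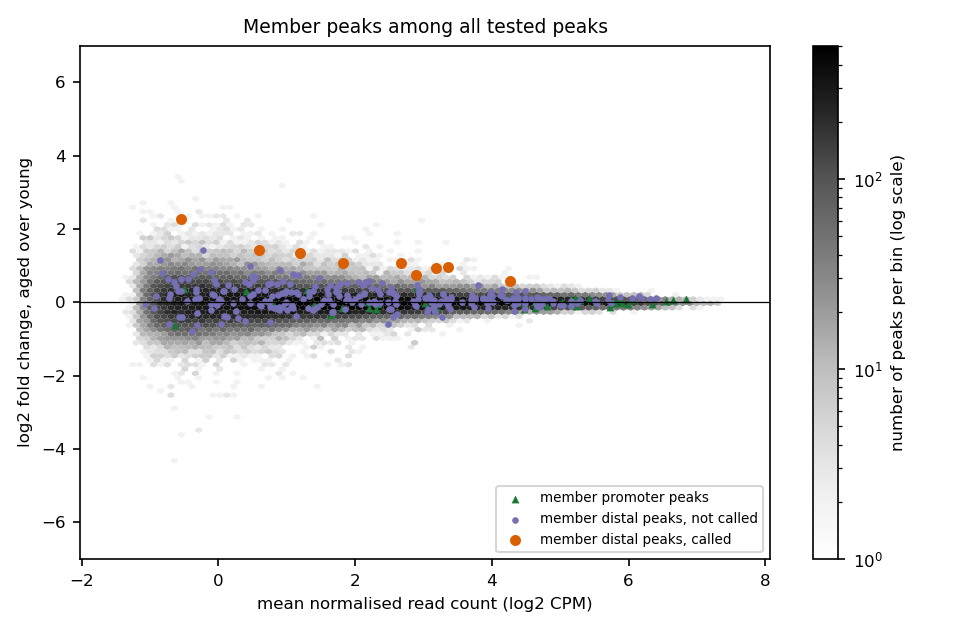
Each member peak is placed by its mean normalised read count (horizontal, log2 CPM) and its log2 fold change of aged over young (vertical) over grey hexagons that count all tested peaks on a log scale. The 9 called distal peaks (orange) lie between 0.58 and 2.28, while the promoter peaks (green triangles) stay between -0.63 and 0.40 and near 0 where counts are high.

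Member peaks were placed differently from peaks in general. Of the 354, 56.8% were intergenic and 16.1% intronic, against 32.0% and 41.6% of all peaks within 50000 bp of a TSS. Their distal peaks had a median width of 244 bp, the same as all distal peaks, and a median level of 3.94 against 2.46 CPM. Their promoter peaks were wider, with a median of 613 against 426 bp.

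Jdp2 on chromosome 12 showed the clearest difference between the ages. Its distal counts, summed over 13 peaks, were 1.87-fold higher in aged libraries, and 5 of its 10 tested peaks were called. In aged 1, 2 and 4 the distal sum was 67.4, 60.2 and 73.8, and in young 1, 2 and 4 it was 38.2, 32.1 and 37.9 CPM of all distal counts. The lowest aged library stood well above the highest young one. The log2 fold change was 0.90 ± 0.11 (SE, n = 3 per age; edgeR adjusted p = 3.2e-05), the only called distal sum among 36 tested members, with 1.72% called over all genes. Leaving out any library kept it between 0.82 and 0.98.

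The Jdp2 promoter did not follow. Its promoter sum was 42.5, 46.9 and 57.4 in aged and 41.9, 45.1 and 41.5 CPM of promoter counts in young libraries, and the ages overlapped. The log2 fold change was 0.18 ± 0.12 (edgeR adjusted p = 0.769). The log2 ratio of distal to promoter counts was 1.37, 1.16 and 1.21 in aged and 0.50, 0.31 and 0.78 in young libraries. All aged ratios were higher, and the exact two-sided permutation test gave p = 0.1, the smallest that 3 against 3 libraries allow. The ratio uses the distal counts already called, so it adds no independent evidence. The same test gave p = 0.1 for Fosl1, 0.2 for Fosb and Btg2, and 0.4 for Hbegf.

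The called peaks lay in the second part of the Jdp2 gene and just past it. The peak with the smallest p, at 85631208 to 85631832 in intron 2 of 3 and 32415 bp from the TSS, had 15.3, 11.8 and 13.5 CPM in aged and 6.58, 7.17 and 7.43 CPM in young libraries (CPM of all peak counts). It was 1.93-fold higher, with a log2 fold change of 0.95 ± 0.15 and an adjusted p of 0.000113 by edgeR. The aged values were all above 11 and the young values all below 8. At 85619616 to 85620117, in the same intron and 20761 bp from the TSS, levels were 8.62, 7.34 and 9.97 CPM in aged and 5.27, 3.05 and 3.95 CPM in young libraries (1.06 ± 0.19, adjusted p = 0.000874). These ranges did not overlap either.

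Past these, the last exon (exon 4 of 4) held a peak at 85638718 to 85639217, 39862 bp from the TSS. Its levels were 3.00, 3.15 and 4.0 CPM in aged and 1.68, 1.23 and 0.632 CPM in young libraries (1.35 ± 0.26, edgeR adjusted p = 0.00227). Just beyond the gene, at 85640990 to 85641209 and 41994 bp from the TSS, an intergenic peak had 5.20, 4.02 and 5.01 CPM in aged and 2.45, 1.92 and 2.53 CPM in young libraries (1.06 ± 0.22, adjusted p = 0.00332). At both peaks all aged libraries were higher. Without young 2 the adjusted p of the intergenic peak was 0.0855, and its log2 fold change 0.92. The fifth called peak, at 85632173 to 85632284 in intron 3 of 3, rested on few counts, 18, 33 and 16 in aged and 4, 5 and 2 in young libraries (2.28 ± 0.46, adjusted p = 0.00344).

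The called Jdp2 peaks lay in 1 stretch. Between 20000 and 45000 bp past the Jdp2 TSS, 5 of 6 tested peaks were called and all 6 were above 0, with a median of 1.06. Upstream of the promoter, to 180000 bp and across the Fos gene, none of 31 tested peaks was called, and the median was 0.15. From 45000 to 110000 bp past the TSS, across Batf, none of 5 tested peaks was called, and the median was 0.03. Large values also lay outside the called stretch, with 1.15 ± 0.61 at a weak Jdp2 peak (mean 0.551 CPM) 16246 bp past the TSS. A Batf peak 39137 bp upstream of the Batf start stood at 0.98 ± 0.30. Neither was called in the fit on age alone, and this Batf peak was called with the block (edgeR adjusted p = 0.0337). Between the stretch and this Batf peak lay a weak peak (mean 0.474 CPM) at -0.04 ± 0.52, which was not called. Summed over distal peaks up to 20000 bp only, Jdp2 stood at 0.53 and was not called, since every called peak lies farther out. These stretches were drawn after the values were seen and carry no test.

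**Figure D2:**
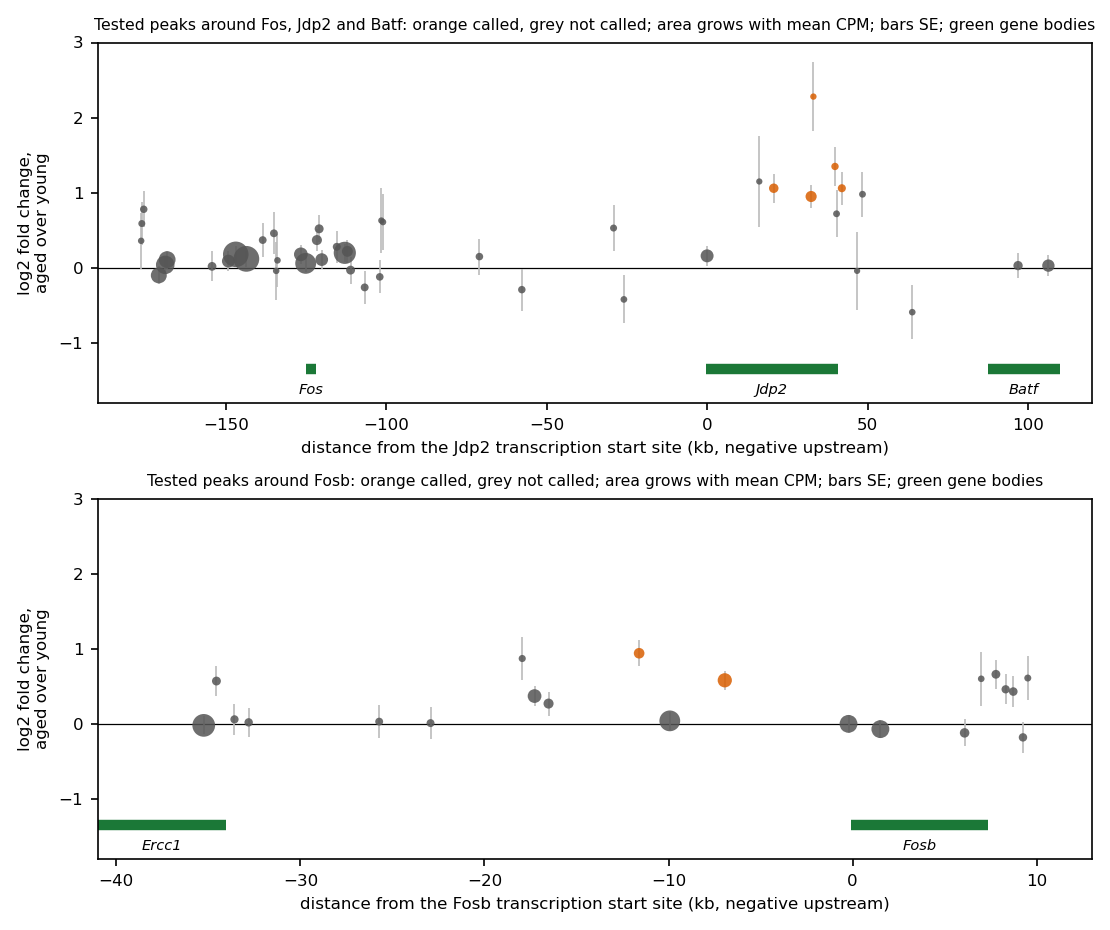
Log2 fold change of aged over young (vertical, bars SE) of every tested peak against distance in kb from the Jdp2 (top) and Fosb (bottom) start site, with the named gene bodies in green and circle area growing with mean CPM. The called peaks (orange) sit 20761 to 41994 bp past the Jdp2 start, and at 6947 and 11595 bp upstream of Fosb, while the large circles at Fos and at both promoters lie near 0.

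In the FOS family all 4 distal sums and all 3 promoter sums were above 0. The median log2 fold change was 0.40 for distal and 0.05 for promoter sums, a difference that was not tested. None of these distal sums was called in the fit on age alone. With the replicate block all 4 were called, as part of 5 called member sums (13.9%) against 4.56% of all genes. The fifth was Jdp2. Promoter sums were 0.06 ± 0.07 for Fos, 0.01 ± 0.08 for Fosb and 0.05 ± 0.10 for Fosl1, and Fosl2 had no promoter peak annotated to it.

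Fosb, whose product can replace FOS in AP-1, had 2 called peaks upstream on chromosome 7. The farther one, at 19321508 to 19321773 and 11595 bp before the TSS, had 11.3, 9.45 and 14.7 CPM in aged and 6.72, 4.86 and 7.27 CPM in young libraries. It was 1.92-fold higher (0.94 ± 0.17, edgeR adjusted p = 0.00122), with no overlap, and was called in every fit that left out 1 library. The nearer one, at 19316803 to 19317182 and 6947 bp before the TSS, had 22.4, 19.3 and 27.2 CPM in aged and 14.4, 14.6 and 17.9 CPM in young libraries (0.58 ± 0.13, adjusted p = 0.0143). Its ages did not overlap, but the call was lost without aged 4 (log2 fold change 0.44) and without young 2 (0.53). Another Fosb peak 17949 bp upstream was at 0.87 ± 0.29 and not called (adjusted p = 0.179), and one 17278 bp upstream was called only with the replicate block (0.37, adjusted p = 0.0248).

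Over all 7 distal peaks of Fosb the sum was 261, 229 and 264 in aged and 241, 196 and 208 CPM of distal counts in young libraries. These ranges overlapped, and the log2 fold change was 0.22 ± 0.09 (edgeR adjusted p = 0.320, and 0.00785 with the block). The Fosb promoter was flat, at 98.0, 99.9 and 95.04 in aged and 99.9, 93.4 and 97.7 CPM of promoter counts in young libraries.

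Fosl1 and Fosl2 encode the FRA1 and FRA2 proteins, which lack the strong activation domain of FOS. The distal sum of Fosl1, over 2 peaks, was 12.1, 13.01 and 17.1 in aged and 9.74, 8.88 and 8.87 CPM in young libraries, without overlap. That of Fosl2, over 10 peaks, was 19.0, 14.9 and 21.0 in aged and 12.9, 10.3 and 14.2 CPM in young libraries, also without overlap. Log2 fold changes were 0.60 ± 0.17 and 0.58 ± 0.17, with edgeR adjusted p of 0.0832 and 0.0896, and 0.0250 and 0.00784 with the block. No single peak of either gene was called, and all 6 tested Fosl2 peaks were above 0. The Fosl1 log2 ratio of distal to promoter counts was -1.59, -1.32 and -1.1 in aged and -1.91, -1.85 and -1.98 in young libraries, with no overlap (exact two-sided permutation p = 0.1).

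The Fosl2 start itself is annotated to another gene. The peak over the RefSeq start of Fosl2 is assigned in the deposited annotation to the predicted gene Gm10463. It had 10.6, 13.4 and 13.2 CPM in aged and 14.6, 15.2 and 11.7 CPM in young libraries, with overlap (-0.19 ± 0.14, edgeR adjusted p = 0.831).

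Fos, the prototype immediate early gene, is the member with most peaks, 1 at the promoter and 26 distal ones. Its promoter peak at 85473400 to 85474403 on chromosome 12 had 53.1, 44.1 and 45.02 CPM in aged and 51.1, 44.3 and 39.5 CPM in young libraries. The ages overlapped (0.06 ± 0.12, edgeR adjusted p = 0.969). Among 23 tested distal peaks, 18 were above 0 and none was called. The distal sum was 734, 662 and 711 in aged and 703, 611 and 599 CPM of distal counts in young libraries, with overlap (0.14 ± 0.08, adjusted p = 0.618, and 0.0465 with the block).

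**Figure D3:**
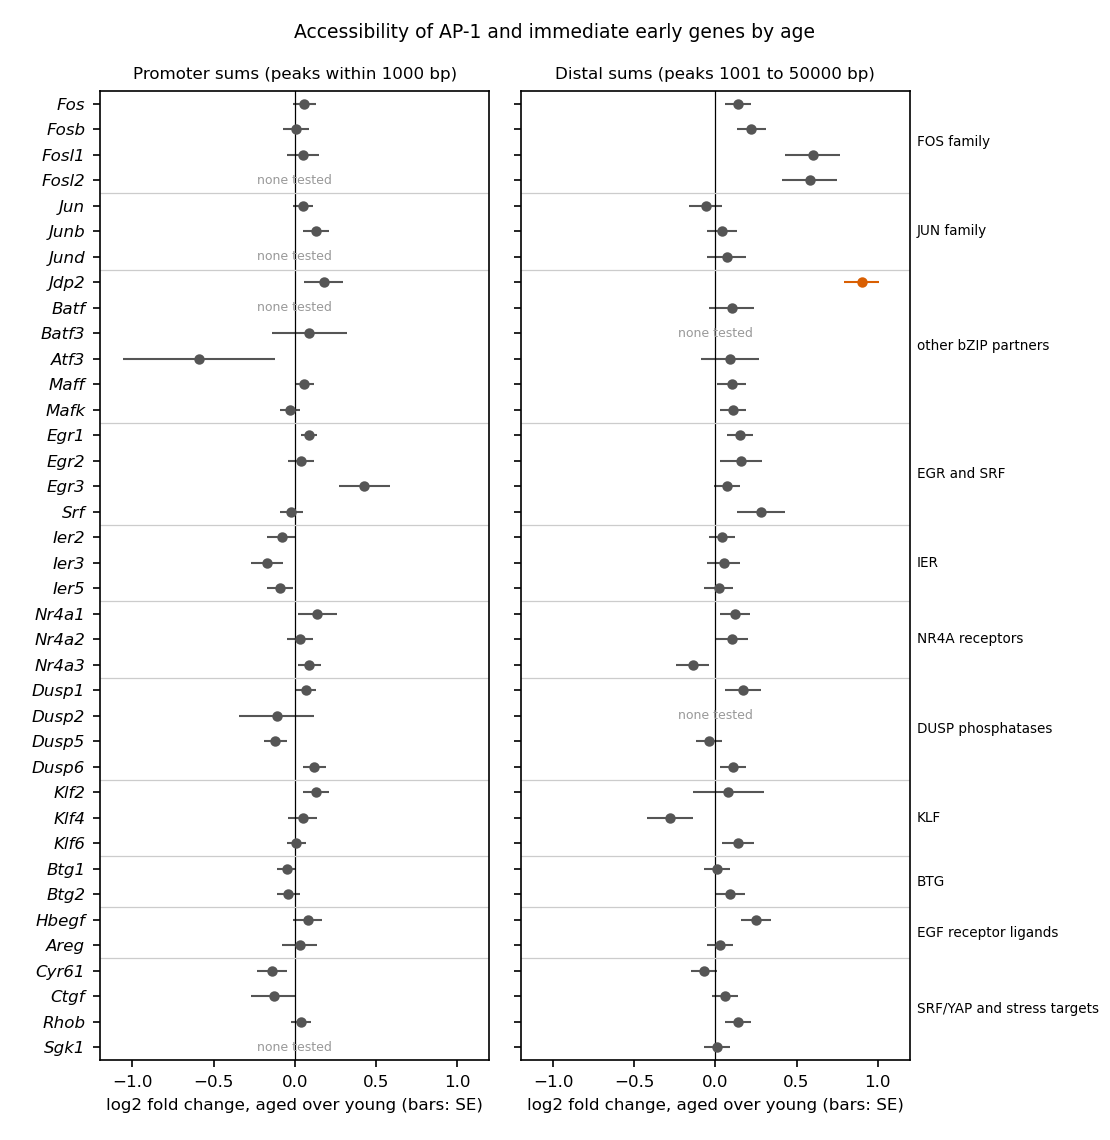
Log2 fold change of aged over young with SE for the promoter sum (left) and the distal sum (right) of each member, grouped by role, with the called sum in orange. Of the 34 promoter sums, 32 lie within 0.2 of 0, and on the distal side Jdp2 at 0.90, Fosl1 at 0.60 and Fosl2 at 0.58 stand farthest to the right.

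The JUN family, the obligatory partners of FOS proteins, showed no called peak or sum. Jun had the highest promoter level per kb of the 34 members, and its stronger promoter peak had 106, 96.4 and 104 CPM in aged and 103, 93.9 and 99.4 CPM in young libraries. These ranges overlapped (0.05 ± 0.10, edgeR adjusted p = 0.973). The Junb promoter sum was 122, 116 and 110 in aged and 112, 102 and 103 CPM of promoter counts in young libraries (0.13 ± 0.08, adjusted p = 0.733), with overlap. The Jun promoter sum stood at 0.05 ± 0.06. Distal sums were -0.06 ± 0.10 for Jun, 0.04 ± 0.09 for Junb and 0.07 ± 0.12 for Jund, which had no promoter peak and no peak over its RefSeq start window. All 3 tested distal peaks of Jun were below 0.

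Among the other leucine zipper factors, Atf3, a stress-induced repressor, needs care with its annotation. The promoter peak annotated to it is a weak one of 104 bp, at 191218759 to 191218862 on chromosome 1, with 0.367, 0.539 and 0.507 CPM in aged and 0.454, 0.884 and 1.11 CPM in young libraries. The RefSeq start of Atf3 lies under another peak, at 191182990 to 191183741, that the deposited annotation gives to Gm24748. That peak had 81.1, 70.5 and 73.5 CPM in aged and 89.3, 74.8 and 66.7 CPM in young libraries. The ages overlapped at both peaks. The log2 fold change was -0.63 ± 0.45 at the annotated peak (edgeR adjusted p = 0.822) and -0.05 ± 0.11 at the RefSeq start (0.978). The large negative value of Atf3 among the promoter sums, -0.59 ± 0.47, therefore came from the weak peak.

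Batf and Batf3, best known in lymphocytes and dendritic cells, were weakly open. Batf had no promoter peak and no peak over its RefSeq start window, and its distal sum was at 0.10 ± 0.14. The tested Batf peak closest to the called Jdp2 stretch was weak, with a mean of 0.474 CPM, and stood at -0.04 ± 0.52 (edgeR adjusted p = 0.997). The next one, 39137 bp upstream of Batf at 85647412 to 85647652, had 1.96, 1.70 and 1.86 CPM in aged libraries. In young libraries this peak had 1.09, 0.737 and 0.948 CPM. All aged values were higher (0.98 ± 0.30, edgeR adjusted p = 0.123, and 0.0337 with the block). The Batf3 promoter sum was 0.09 ± 0.23 and the lowest per kb of the 34 members. The small MAF genes, whose products pair with other leucine zippers, were strongly open and flat at promoters, with 0.06 ± 0.06 for Maff and -0.03 ± 0.06 for Mafk.

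Egr3 had the largest positive promoter difference. EGR proteins are zinc finger factors induced through SRF, and the Egr3 promoter sum was 24.4, 30.9 and 29.9 in aged and 23.6, 20.9 and 16.7 CPM of promoter counts in young libraries. All aged values were higher, with aged 1 and young 1 close together. The log2 fold change was 0.43 ± 0.16, which was not called (edgeR adjusted p = 0.292, and 0.0957 with the block). A weak peak 45267 bp upstream, at 70032024 to 70032332 on chromosome 14 in an intron of another gene, had 1.101, 1.29 and 1.18 CPM in aged and 0.318, 0.442 and 0.790 CPM in young libraries (1.42 ± 0.40, adjusted p = 0.0703, and 0.0226 with the block). Its ages did not overlap, on 5 to 31 counts per library.

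Egr1, the most studied EGR gene, had a broad promoter peak at 34859788 to 34861393 on chromosome 18. Its levels were 125, 111 and 118 CPM in aged and 123, 109 and 98.1 CPM in young libraries, with overlap (0.10 ± 0.11, edgeR adjusted p = 0.931). The Egr1 promoter sum was at 0.09 ± 0.05, Egr2 at 0.04 ± 0.08 and Srf, the factor that binds CArG boxes, at -0.02 ± 0.07. The 4 distal sums of these genes were all above 0, from 0.07 to 0.28, and none was called. The Egr1 peak 4272 bp past the TSS, at the 3′ end of the gene, was called only with the block (0.33, adjusted p = 0.0265).

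The IER and BTG genes were the groups with every promoter below 0, and none was called. Ier3, which encodes a stress-inducible survival protein, had 64.5, 62.0 and 58.5 in aged and 70.4, 63.9 and 76.0 CPM of promoter counts in young libraries (-0.17 ± 0.10, edgeR adjusted p = 0.698). The ages overlapped, at aged 1 and young 2. Ier2 was at -0.08 ± 0.09 and Ier5 at -0.09 ± 0.08, and the distal sums of all 3 lay between 0.02 and 0.05.

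The NR4A genes encode orphan nuclear receptors. Nr4a3 had 113, 115 and 115 in aged and 109, 106 and 105 CPM of promoter counts in young libraries (0.09 ± 0.07, edgeR adjusted p = 0.823). The aged values were all higher, by a small step. Such separation was found for 3 of the 34 member promoter sums, Egr3, Dusp6 and Nr4a3, against 14% of all promoter sums in either direction. Nr4a1 stood at 0.14 ± 0.12 and Nr4a2 at 0.03 ± 0.08. The distal sum of Nr4a3 was at -0.14 ± 0.10, with 1 of its 6 tested distal peaks above 0.

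The DUSP genes encode the phosphatases that inactivate MAP kinases. Dusp5 had 154, 155 and 145 in aged and 180, 146 and 171 CPM of promoter counts in young libraries, with overlap (-0.12 ± 0.07, edgeR adjusted p = 0.728). Dusp1 was at 0.07 ± 0.06, Dusp6 at 0.12 ± 0.07 and Dusp2, a gene mainly of leukocytes, at -0.11 ± 0.23 on a low level of 19.1 CPM per kb. No distal peak of this group was called in either fit.

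The KLF genes encode zinc finger factors, of which KLF4 is known from differentiated epithelium. Klf2 had 115, 109 and 128 in aged and 111, 98.8 and 113 CPM of promoter counts in young libraries (0.13 ± 0.08, edgeR adjusted p = 0.741), and the ages overlapped. Klf4 was at 0.05 ± 0.09 and Klf6 at 0.01 ± 0.06. The distal sum of Klf4 was 15.9, 16.7 and 15.6 in aged and 17.7, 20.7 and 21.0 CPM of distal counts in young libraries. It was the only member distal sum with every aged value below every young one (-0.28 ± 0.14, adjusted p = 0.526).

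The antiproliferative BTG genes were flat at promoters. Btg1 had 190, 191 and 179 in aged and 201, 186 and 190 CPM of promoter counts in young libraries, with overlap (-0.05 ± 0.06, edgeR adjusted p = 0.922), and Btg2 was at -0.04 ± 0.07. A Btg2 peak at 134074659 to 134074897 on chromosome 1, at the 3′ end of the gene and 4342 bp past its TSS, was called. It had 8.44, 8.87 and 9.97 CPM in aged and 4.995, 4.72 and 7.58 CPM in young libraries, a 1.68-fold difference (0.75 ± 0.17, adjusted p = 0.0131). The ages did not overlap, but the call was lost without aged 4 (0.68), young 1 (0.68) or young 2 (0.62). A Btg1 peak 11607 bp past the TSS was at 0.59 ± 0.20 (adjusted p = 0.176, and 0.0472 with the block).

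Hbegf and Areg encode EGF receptor ligands that are shed from the epithelial surface. A Hbegf peak at 36486725 to 36486904 on chromosome 18, intergenic and 28991 bp past the TSS, was called. It had 2.201, 1.74 and 2.76 CPM in aged and 0.817, 0.884 and 0.632 CPM in young libraries, a 2.70-fold difference (1.43 ± 0.31, edgeR adjusted p = 0.00614). The ages did not overlap, and without aged 4 the adjusted p was 0.0649. A stronger peak 1601 bp upstream had 14.8, 12.5 and 21.0 CPM in aged and 10.8, 11.6 and 12.6 CPM in young libraries, with overlap (0.48 ± 0.16, adjusted p = 0.168, and 0.0331 with the block). The Hbegf promoter sum was 134, 105 and 122 in aged and 118, 107 and 117 CPM of promoter counts in young libraries (0.08 ± 0.09, adjusted p = 0.898), and Areg stood at 0.03 ± 0.11.

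Ereg, the third ligand gene of the list, had no peak annotated to it. Its RefSeq gene body on chromosome 5 held 7 peaks that the deposited annotation assigns to RP23-42K10.4. All 7 were tested and none was called, with log2 fold changes from -0.29 to 0.22 and a mean level of at most 8.11 CPM. They are outside the 354 member peaks.

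**Figure D4:**
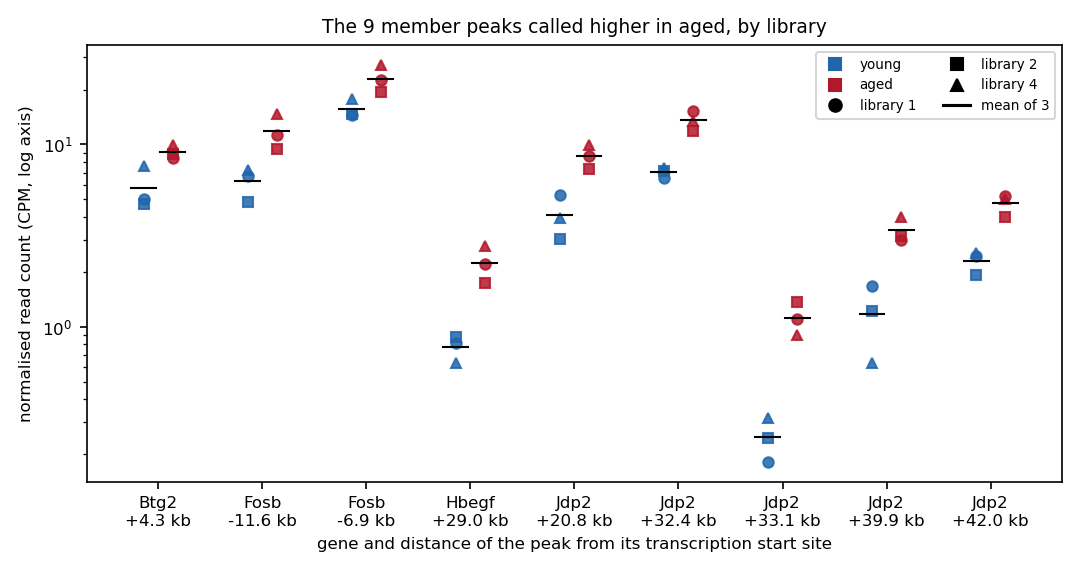
Normalised read count (CPM, log axis) of the 9 called member peaks in each library, young in blue and aged in red, with the library number as marker shape and the mean of 3 as a bar. At each peak the 3 aged values lie above the 3 young ones, from a mean of 0.248 against 1.12 at the weakest Jdp2 peak to 15.7 against 23.0 at the nearer Fosb peak.

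The last group holds targets of SRF, YAP and stress hormones. Cyr61, which encodes a matrix protein, had a promoter sum of 69.5, 70.8 and 71.1 in aged and 71.1, 84.5 and 78.5 CPM of promoter counts in young libraries. The highest aged and the lowest young value coincided (-0.14 ± 0.09, edgeR adjusted p = 0.753). The related Ctgf was at -0.13 ± 0.14 and the GTPase gene Rhob at 0.04 ± 0.06. Sgk1, a kinase gene induced by corticoids and osmotic stress, had no promoter peak by the annotation. A peak annotated to Sgk1 does cover 1 of its RefSeq start windows, with 40.1, 36.5 and 36.1 CPM in aged and 43.2, 36.4 and 34.9 CPM in young libraries (-0.03 ± 0.11).

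Distal peaks of this group split by direction. The Ctgf peaks 36087 and 38773 bp past the TSS stood at 0.66 ± 0.23 and 0.48 ± 0.16 and were called only with the block (adjusted p = 0.0438 and 0.0402 by edgeR). A Cyr61 peak 31467 bp past the TSS was at -0.58 ± 0.22, and it was the only member peak called lower in either fit (-0.60 with the block, adjusted p = 0.0227). The Ctgf peak at 36087 bp, the Cyr61 peak, the Egr1 peak at 4272 bp and the Fosb peak at 17278 bp were picked after their values were seen.

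Over the 34 members with a promoter sum, none was called, by edgeR or by DESeq2, where 1.74% of all promoter sums were called by edgeR. Only Egr3 had an unadjusted p below 0.05. Of the 34, 22 were above 0 (64.7%), against 49.4% of all promoter sums. The median log2 fold change was 0.04, and 32 of the 34 lay within 0.2 of 0, the exceptions being Egr3 and Atf3. Of the 36 tested distal sums, 31 were above 0 (86.1%, against 49.1% of all distal sums), with a median of 0.09 and a range of -0.28 to 0.90. The SD of the median log2 fold change between libraries was 0.0764 for distal and 0.0316 for promoter sums. Distal sums of the epithelial markers were above 0 in 8 of 9 cases. Whether the skew is particular to these members was not tested. Dusp2 had no distal peak, and the distal count of Batf3 was too low to test. In 23 of the 32 members with both sums the distal change exceeded the promoter change.

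Promoter openness per length varied far more between members than between ages. Levels of the promoter sums, in CPM of promoter counts per kb of peak, were highest at Jun (286), Btg1 (247), Dusp6 (235), Srf (230) and Btg2 (227). They were lowest at Batf3 (16.6), Atf3 by its annotated peak (18.8), Dusp2 (19.1) and Jdp2 (23.9). Jun stood at percentile 97.1 of all tested promoters and Jdp2 at percentile 18.6. Dusp6 and Srf, next to each other in this order, differed by less than the spread between their libraries.

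Other genes of the pathway were taken from a list of 69, of kinases, their activators and inhibitors, and further early response genes. At promoters 53 were tested and none was called, with 25 above 0. The smallest p were at Gadd45b (-0.20 ± 0.07), Errfi1 (-0.20 ± 0.08), Nfe2l2 (-0.23 ± 0.10) and Egr4 (-0.57 ± 0.26), with edgeR adjusted p from 0.227 to 0.524. At distal sums 58 were tested, 34 were above 0 with a median of 0.02, and only Atf2 was called. That is 1.72% of the 58, the same share as over all distal sums. Atf2, a stress kinase target that pairs with JUN, had 11.6, 13.3 and 11.0 in aged and 19.5, 14.95 and 25.5 CPM of distal counts in young libraries. It was lower in every aged library (-0.68 ± 0.17, adjusted p = 0.0455), and the call held in 1 of the 6 fits without 1 library, the one without young 2, with an adjusted p of up to 0.198 in the others. With the block Gadd45g, a growth arrest gene, was called too (0.20, adjusted p = 0.0485). Of 11 heat shock genes, a list included because tissue digestion can induce them, 8 promoters were tested and none was called. Among these Hspa1a had -0.41 ± 0.11 (adjusted p = 0.0618, and 0.00869 with the block), so this promoter was less open in aged libraries in the blocked fit. The part of cell handling in the member results was not tested.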

How the data were processed

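ATAC-seq of sorted small intestinal epithelium was measured in 6 libraries, each sequenced on 4 lanes and counted as 1 replicate (24 sample records, n = 3 per age). The deposited table holds unnormalised counts for each consensus peak, with the authors' annotation of each peak to a nearest gene and TSS distance. The submitters' processing notes list MACS2 2.2.7.1, BWA 0.7.17-r1188, featureCounts 2.0.1, FastQC 0.11.9, bedtools 2.29.2, SAMtools 1.10, MultiQC 1.9, Trim Galore 0.6.4, Picard 2.23.1, deepTools 3.4.3, R 3.6.2 and build GRCm38. Not given in the sources used here were the peak caller's settings, any Tn5 shift and whether fragments or single reads were counted. Nearest-gene annotation can give a member's start to another gene. Coordinates count from 1, as the annotation table has them.

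All peaks, promoter sums (up to 1000 bp) and distal sums (beyond that to 50000 bp) were filtered with filterByExpr, scaled by TMM and tested for age with edgeR 4.0.16's quasi-likelihood test in R 4.3.3, with Benjamini-Hochberg adjustment over all features and calls at 0.05. Sums were scaled to their own totals, so their CPM are not those of peaks. The fit was tested on simulated data. Young 4 had the fewest counts, 6149680. Same-numbered libraries of the ages deviated together weakly (correlations of 0.236, 0.182 and 0.123, each over the criterion of 0.1 set here). They were therefore taken as pairs in a replicate block. No label explains the numbers, and correlations this weak do not establish a pairing. The fit with this replicate block is given beside results it changes. Alternatives were other scalings, no filter, DESeq2 1.42.0, thinning, other distances, a threshold of 0.1 and leaving out each library. The members, lists and tests were chosen with earlier results of these data known. Named peaks were those called, the 15 with the smallest p and the strongest promoter peak of Fos, Jun, Atf3 and Egr1. In each role group the promoter with the smallest p is given by library. Correlations between promoters over the 6 libraries, which fall into the 2 ages, are left out.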

Additional observations from a re-analysis of the deposited data

How the results depend on the processing

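No promoter sum was called under any alternative run, and the 9 called peaks stayed higher in aged under each in which they were tested. The number of called member peaks was 18 with the replicate block, 4 with all libraries thinned to the shallowest, 3 with distal peaks up to 20000 bp only, and 6 to 11 without one library, with 6 without aged 4 or young 2 and 10 without young 4. Called distal sums numbered 5 with the block, 3 at an adjusted p below 0.1, 0 up to 20000 bp, and 1 to 2 without one library, 2 of them without aged 2 (Jdp2 and Fosl2) or young 1 (Jdp2 and Fosb). The median log2 fold change of member peaks lay between 0.056 and 0.131 without one library, the highest without young 1. Besides the counts and calls named with the results, the block changed no other call of a member. Among the calls that thinning ended were the Btg2 peak (0.80), the Jdp2 peak at 39862 bp (1.21) and the nearer Fosb peak (0.42). With 4 member peaks called after thinning, others of the 9 were also not called there, and they are not listed. The uncalled values that changed sign were mostly small, but the Batf3 and Dusp2 promoter sums and the Klf2 distal sum moved more widely. Thinned promoter sums were -0.05 for Klf6, 0.03 for Srf, -0.04 for Fosl1, -0.21 for Batf3, -0.05 for Nr4a2, -0.01 for Areg, Jun and Rhob and 0.02 for Btg1. Thinned distal sums were -0.09 for Batf, 0.01 for Jun and -0.02 for Jund, and the Jun promoter peak was at -0.004. Within 3000 bp the promoters of Klf4 (-0.004), Fosb (-0.02), Atf3 (0.03) and Nr4a3 (-0.01) changed sign, and up to 20000 bp the distal sum of Dusp5 (0.001). Total count scaling put the distal sums of Sgk1 and Btg1 at -0.01, and the block put the Areg promoter at -0.01 and the Klf2 distal sum at -0.03. Without one library in turn, promoter sums ran from -0.02 to 0.04 for Klf6 and Fosb, -0.02 to 0.18 for Klf4, -0.05 to 0.03 for Srf, -0.06 to 0.01 for Mafk, -0.1 to 0.01 for Btg2, -0.002 to 0.17 for Hbegf, -0.01 to 0.1 for Fosl1, -0.11 to 0.19 for Batf3, -0.01 to 0.06 for Nr4a2, -0.3 to 0.15 for Dusp2, -0.07 to 0.14 for Areg and -0.01 to 0.11 for Egr2. Distal sums ran from -0.03 to 0.11 for Ier3, -0.04 to 0.06 for Sgk1 and Btg1, -0.02 to 0.12 for Ctgf, -0.05 to 0.23 for Atf3, -0.01 to 0.09 for Areg, -0.09 to 0.01 for Dusp5, -0.14 to 0.01 for Jun, -0.04 to 0.13 for Junb, -0.01 to 0.1 for Ier2, -0.25 to 0.32 for Klf2 and -0.01 to 0.19 for Jund, and the Fos promoter peak from -0.03 to 0.17. The cause of these changes was not tested. Depth is one limit, since the thinned libraries, all at the depth of young 4, gave 4 called member peaks.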
